A study of Homo sapiens with 6 samples.

Results

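Gene expression in the second array of each of 3 HEK293T lines (replicate 2) was compared with that in the first array of the same line (replicate 1). HEK293T is an established human line from embryonic kidney in which the SV40 large T antigen is expressed. The lines stably expressed a lentiviral shRNA against the long noncoding RNA linc00598, shlinc00598#2 or shlinc00598#3, or the control shRNA shCTL. Total RNA of cells grown in DMEM with heat-inactivated serum was hybridized to Illumina HumanHT-12 v4 arrays, 6 in all. Each side holds 3 arrays, 1 from each line, and arrays were paired by line. The sample titles say only rep1 and rep2, not whether these were separate cultures, so p-values measure the spread between these arrays. All replicate 1 arrays lay before the replicate 2 arrays on the same chip, so the replicate and the position on the chip cannot be told apart. Each shRNA is represented by 1 line, and the control is 1 line. All genes were read whose probe had a detection p under 0.05 on all 3 arrays of either side: 16458 of 37254 genes and unnamed probes, of which 11941 are named genes.

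Several stress programmes of cultured cells can be read from their target genes. When amino acids run short or the endoplasmic reticulum is stressed, the transcription factor ATF4 is translated and switches on amino acid transporters, amino acid synthesis enzymes and tRNA synthetases. When membrane sterol falls, the SREBP factors are cleaved and switch on the enzymes of cholesterol synthesis. The heat shock factor HSF1 controls chaperones that refold proteins, and MondoA, bound to MLX, reads sugar phosphates and drives TXNIP and ARRDC4, which restrain glucose uptake.

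Of the 16458 genes and unnamed probes, 3334 were higher in replicate 2 (20.3%) and 3287 were lower (20.0%), by limma with the line as a block and an adjusted p under 0.05. The direction was the same in all 3 lines for 64.5%. All 3 replicate 2 arrays lay above all 3 replicate 1 arrays for 24.9% and below them for 22.8%. The size of the difference was mostly small, with a median of 0.21 on the log2 scale. At least 2-fold in every line were 43 higher (0.261%) and 108 lower (0.656%), of which 25 and 95 are named genes. Replicate accounted for 69.4% of the sum of squares over the 6 arrays, line for 19.2% and the line by replicate term for 11.4%. The median raw intensity per array was 105.4 to 126.2 in replicate 2 and 119.5 to 124.8 in replicate 1, and 20864 to 21135 and 21584 to 22134 probes were detected. Of the genes and unnamed probes, 62 were detected on all replicate 2 arrays and on no replicate 1 array, and 234 showed the converse. Without the shlinc00598#3 pair the calls fell to 2024 higher and 2035 lower, and without the shCTL pair 82 and 206 were at least 2-fold higher and lower in both remaining lines. No probe is named LINC00598, so the depth of the knockdown was not read.

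The largest change was that of ATF3, a stress-induced transcription factor. It read 10.17, 10.31 and 11.57 in replicate 2 of shlinc00598#2, shlinc00598#3 and shCTL, against 14.14, 14.41 and 14.69 in replicate 1 (log2 normalized intensity, here and below, and always in this order of lines). The 3 replicate 2 arrays all lay below every replicate 1 array. The difference was -3.73 (SE 0.16, limma adjusted p = 3.85e-06), 13.3-fold. A second ATF3 probe differed by -0.77. ANKRD1, a target of YAP that encodes a nuclear ankyrin repeat protein, was not detected on any replicate 2 array and read 9.87 to 10.37 in replicate 1. As measured, ANKRD1 differed by -3.2 (limma adjusted p = 2.36e-06). With undetected arrays set at their lowest detected signal, the difference was -3.12 (limma adjusted p = 6e-06). Its level was at least 8.67-fold lower, a bound set by the lowest detected signal on each array. BEST1, which encodes a chloride channel, was at least 5.17-fold lower by the same measure. The other named genes among the 12 with the largest decrease were INHBE, GADD45A, DHRS2, ANXA1, ARRDC4, TXNIP, TNFRSF12A, HSPB8 and CCND2, which differed by -3.08 to -2.26. At the other end, RNY4, a small noncoding Y RNA, read 9.61, 9.86 and 9.81 in replicate 2 and 7.57, 7.63 and 7.80 in replicate 1. It was higher by 2.10 (SE 0.09, adjusted p = 2.86e-06). The other genes among the 12 with the largest increase were HSPA1B, EGR1, RNY1, NAGPA, MT1X, LRRC45, INSIG1, HSPA8, ZC3HAV1, CYP26A1 and POLR2L, at 1.96 to 1.44. For LRRC45 and ZC3HAV1 other probes differed by as little as 0.47 and 0.17.

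**Figure D1:**
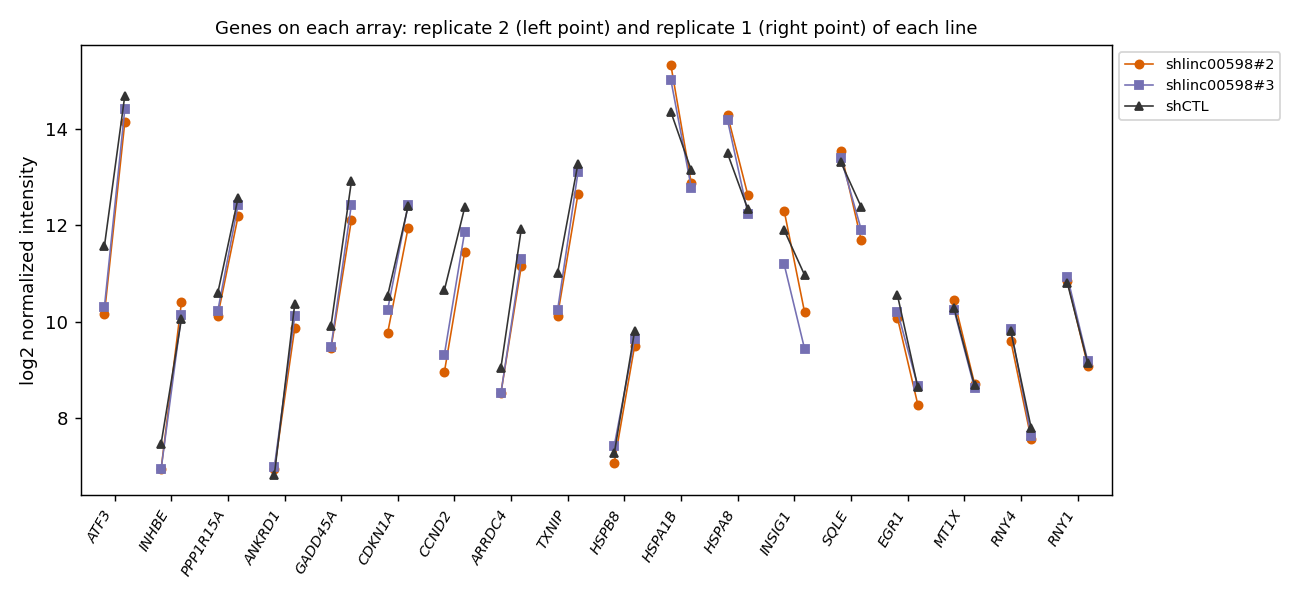
Log2 normalized intensity (y axis) of 18 genes on each of the 6 arrays, with replicate 2 as the left and replicate 1 as the right point of each line and colours for the lines. Replicate 2 lay below replicate 1 in all 3 lines for the genes from ATF3 to HSPB8 and above it in all 3 lines for those from HSPA1B to RNY1.

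The amino acid response was the list with the most negative median. Of 42 ATF4 targets kept, 33 were lower in replicate 2 (78.6%, against 20.0% of all genes), 1 was higher and 8 were not called, and the median difference was -0.75 (0.01 over all genes). In 28 of the 42, all replicate 2 arrays lay below all replicate 1 arrays, as they did for 22.8% of all genes. The transcript of ATF4 itself, which is controlled mainly at translation, read 14.15, 14.20 and 14.47 in replicate 2 against 14.60, 14.39 and 14.50 in replicate 1, a difference of -0.22 that did not pass the test (adjusted p = 0.106). Another ATF4 probe differed by 0.18. The 1 target that was higher was ATF5, a related transcription factor that is also controlled at translation (0.99, SE 0.11, adjusted p = 0.000291).

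Promoters of the list were searched for the CARE letters TGATGNAA, the core of C/EBP-ATF response elements that ATF4 binds, on both strands of the bases from 250 before to 50 after the start in RefSeq (GRCh38.p14). The letters stood in 5 of the 33 list promoters at hand (15.2%) and in 5 of 15 tRNA synthetase promoters (33.3%), against 3.67% of 27305 promoters and 1.69% of those of 9608 kept genes. The ATF4 list was made of known targets, so its share describes the list and not these arrays. Among called genes the letters stood in 2.43% of the promoters of those lower and 1.23% of those higher in replicate 2. The windows that follow show the match in capitals, 5′ to 3′ along the gene, for the members in which it lies before the start. They lie at chr7:97872451-97872494 (minus strand, match 68 to 61 bases before the start) for ASNS, chr1:212565198-212565241 (plus strand, 191 to 184) for ATF3, chr15:40953244-40953287 (plus strand, 209 to 202) for CHAC1, chr16:70289668-70289711 (minus strand, 187 to 180) for AARS1 and chr9:92293698-92293728 (minus strand, 13 to 6) for IARS1.
ASNS: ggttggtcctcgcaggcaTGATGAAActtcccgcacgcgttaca
ATF3: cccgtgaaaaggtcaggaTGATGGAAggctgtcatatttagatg
CHAC1: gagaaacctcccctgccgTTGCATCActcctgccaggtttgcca
AARS1: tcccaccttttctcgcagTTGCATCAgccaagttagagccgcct
IARS1: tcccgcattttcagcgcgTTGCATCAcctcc
The first 2 carry the letters on the gene's strand and the other 3 on the opposite strand. Over the 3 lines the differences were -1.50, -3.73, -1.02, -0.64 and -0.72, all called lower, but CHAC1 was higher in replicate 2 of shCTL (0.44). A match is a description and not a binding site.

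Among the ATF4 targets, stress regulators came first. INHBE, a secreted activin subunit, was detected on 1 of 3 replicate 2 arrays at 6.94, 6.94 and 7.47, against 10.41, 10.14 and 10.06 in replicate 1 (-3.08, SE 0.15, adjusted p = 4.73e-06). With the undetected knockdown arrays set at their lowest detected signal, INHBE differed by -3.04, a bound. PPP1R15A, the regulatory subunit that reverses the phosphorylation of eIF2alpha, read 10.12, 10.22 and 10.59 against 12.19, 12.43 and 12.57 (-2.09, SE 0.09). DDIT3, the transcription factor CHOP, read 8.03, 8.18 and 9.33 in replicate 2 and 9.79, 9.59 and 9.87 in replicate 1 (-1.24, SE 0.19, adjusted p = 0.00102). In all 3 of these genes the sides did not overlap. CEBPG, a partner of ATF4, differed by -1.48, and TRIB3, a pseudokinase that restrains ATF4, by -0.71. GDF15, a stress cytokine, was not detected in replicate 2 and was at least 2.15-fold lower.

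Enzymes and transporters of amino acids made up most of the remainder. ASNS, asparagine synthetase, read 12.40, 12.58 and 13.62 in replicate 2 against 14.44, 14.30 and 14.37 in replicate 1 (-1.50, SE 0.20, adjusted p = 0.000546). CTH, which makes cysteine from cystathionine, read 9.83, 9.67 and 11.27 against 12.46, 12.11 and 12.17 (-1.99, SE 0.27). The knockdown lines were lowest in replicate 2 for both genes, and shCTL lay between them and the replicate 1 arrays. PCK2, a mitochondrial enzyme of phosphoenolpyruvate synthesis, differed by -1.72, and another of its probes by -0.63. The serine synthesis enzymes PSPH, PSAT1 and PHGDH differed by -0.79, -0.72 and -0.55. Among transporters, SLC3A2, SLC7A3 and SLC7A1 differed by -1.04, -0.95 and -0.88, and SLC7A5 by -0.13, which did not pass the test. SLC7A11, the cystine transporter, was detected on 1 of 3 replicate 2 arrays, that of shCTL, and its difference was -0.91 with the other arrays set at their lowest detected signal, a bound (measured -1.12). A second SLC3A2 probe differed by -0.33.

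Of the 18 cytosolic aminoacyl-tRNA synthetases kept, which charge tRNAs with their amino acids, 10 were lower, 2 were higher and 6 were not called (median -0.40). The shares were 55.6% lower and 11.1% higher, against 20.0% and 20.3% of all genes. SARS1, for serine, had the largest decrease, with 11.17, 11.31 and 11.68 in replicate 2 and 12.46, 12.42 and 12.65 in replicate 1 (-1.12, SE 0.09, adjusted p = 7.16e-05). YARS1, IARS1 and LARS1 differed by -0.93, -0.72 and -0.65. HARS1, for histidine, went the other way, with 11.97, 12.02 and 11.96 in replicate 2 and 10.87, 10.95 and 10.86 in replicate 1 (1.09, SE 0.08, adjusted p = 4.3e-05). QARS1, for glutamine, was higher by 0.44.

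**Figure D2:**
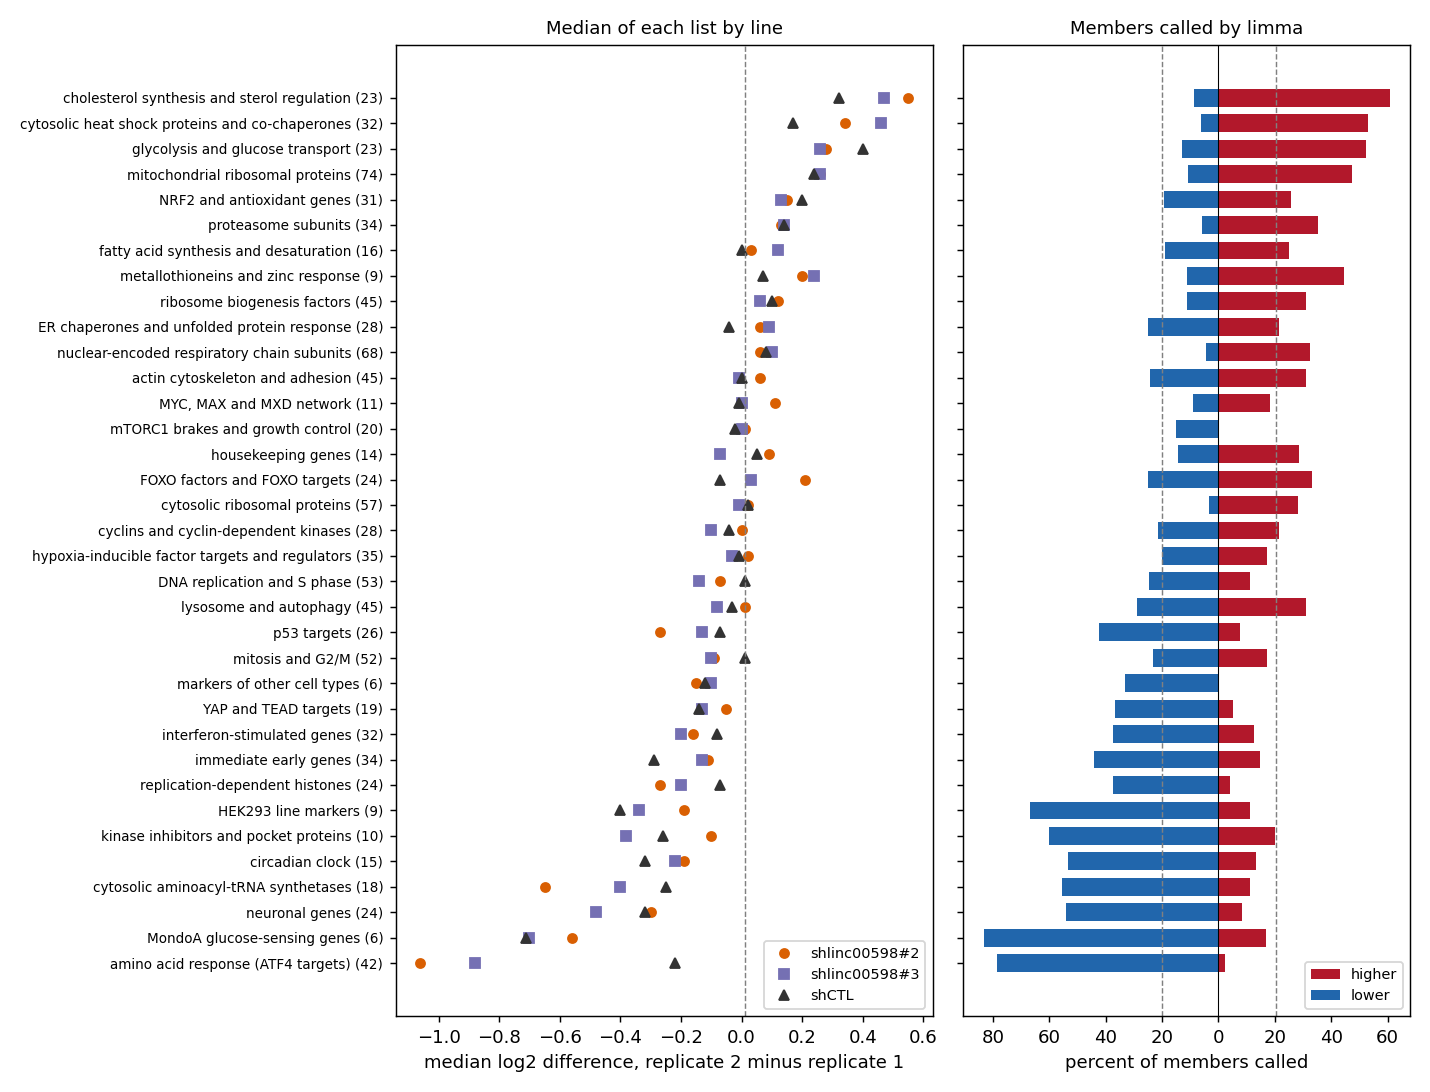
Left, median log2 difference of each gene list (replicate 2 minus replicate 1) in each line, with the number of genes kept in brackets and a dashed line at the median over all genes of 0.01. Right, percent of members called lower and higher by limma, with dashed lines at 20.0% and 20.3% for all genes. The ATF4 list lies lowest in both knockdown lines, and the cholesterol and heat shock lists lie above all others in them.

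The size of the decrease in the ATF4 list differed between the lines. Its median was -1.06 in shlinc00598#2, -0.88 in shlinc00598#3 and -0.22 in shCTL, and 40, 40 and 30 of the 42 members had a negative difference. The median over all genes was 0.01 in each line. SHMT2 and ALDH18A1, of serine and proline metabolism, were among those not called (0.06 and 0.13). In 40 members the difference was more negative in both knockdown lines than in the control, as it was for 5989 of all 16458 genes and unnamed probes. A test of the interaction, the mean difference of the knockdown lines less that of shCTL, called 52 genes and unnamed probes (0.316% of all) at a limma adjusted p under 0.05, 9 positive and 43 negative, of which 37 are named and 13 are in the ATF4 list. This test had 1 residual degree of freedom and 1 control line. With background correction by neqc it called 0 (smallest adjusted p = 0.482), and at an unadjusted p under 0.05 1533, against 1800 without. The median of the ATF4 list was then -0.89, against -0.65 without, and 40 of 42 members were negative under both. Of all genes, 50.5% were negative with neqc and 50.1% without.

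CHAC1, which breaks down glutathione, read 6.35, 6.61 and 7.97 in replicate 2 and 8.33, 8.13 and 7.53 in replicate 1. Both knockdown arrays of replicate 2 were below detection, where the lowest detected signal was 7.01 on each. Both knockdown lines were lower in replicate 2 and shCTL was not. The interaction was -2.19 as measured (SE 0.21, limma adjusted p = 0.000175) and -1.67 with undetected arrays set at that signal (adjusted p = 0.00385), which is a bound. With undetected signal set so for all genes the interaction called 24. DDIT4, an inhibitor of mTORC1, read 9.48, 10.22 and 11.69 in replicate 2, against 11.21, 11.49 and 11.44 in replicate 1, an interaction of -1.76. SESN2, a leucine-binding inhibitor of mTORC1, differed by -0.95, -0.74 and 0.75 in shlinc00598#2, shlinc00598#3 and shCTL, and SLC6A9, a glycine transporter, by -0.70, -0.50 and 0.78. For these 4 genes the replicate difference was of opposite sign in the knockdown lines and in the control. CTH and PCK2 were lower in all 3 lines, by more in the knockdown lines (interactions of -1.64 and -1.63). The call of CHAC1 as lower over the 3 lines (-1.02, adjusted p = 0.047) and that of DDIT4 (-0.92, adjusted p = 0.0333) were lost with neqc, with no line block and without either knockdown pair, at adjusted p of 0.239 and 0.205 for CHAC1 and 0.171 and 0.149 for DDIT4 without shlinc00598#2 and without shlinc00598#3. For CHAC1 the difference was then -0.54 and -0.77, and its call was lost too with the mean of a gene's probes and with undetected signal at the floor (-0.67, adjusted p = 0.0969).

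**Figure D3:**
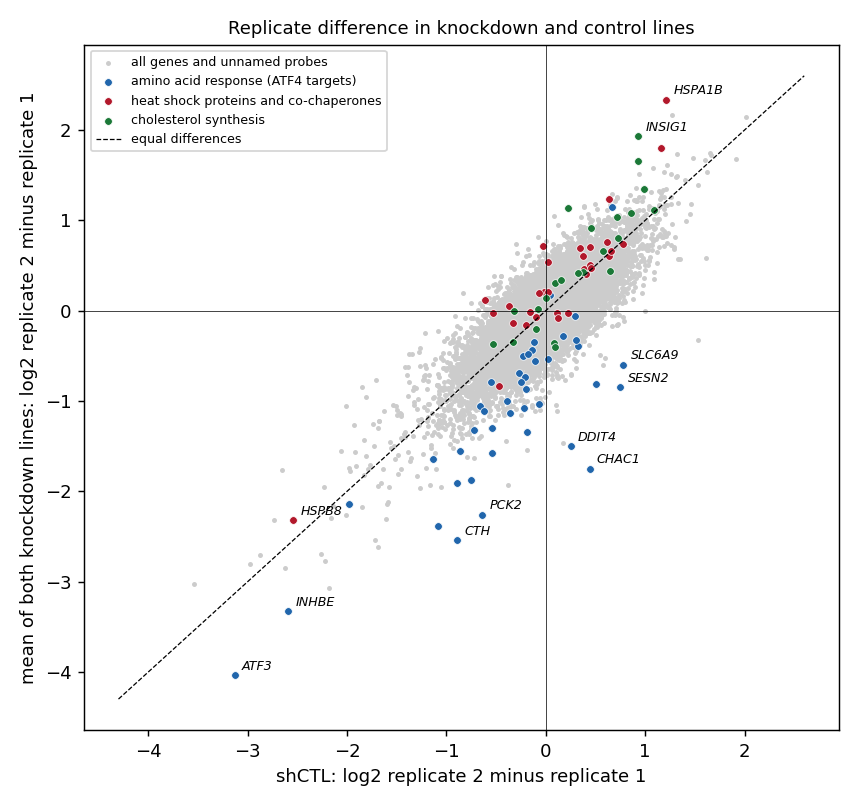
Log2 difference of replicate 2 minus replicate 1 in shCTL (x axis) and as the mean of both knockdown lines (y axis) for all 16458 genes and unnamed probes, with 3 lists in colour and a dashed line of equal differences. The ATF4 targets lie below that line in 40 of 42 cases, and 50.1% of all genes do.

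**Figure D4:**
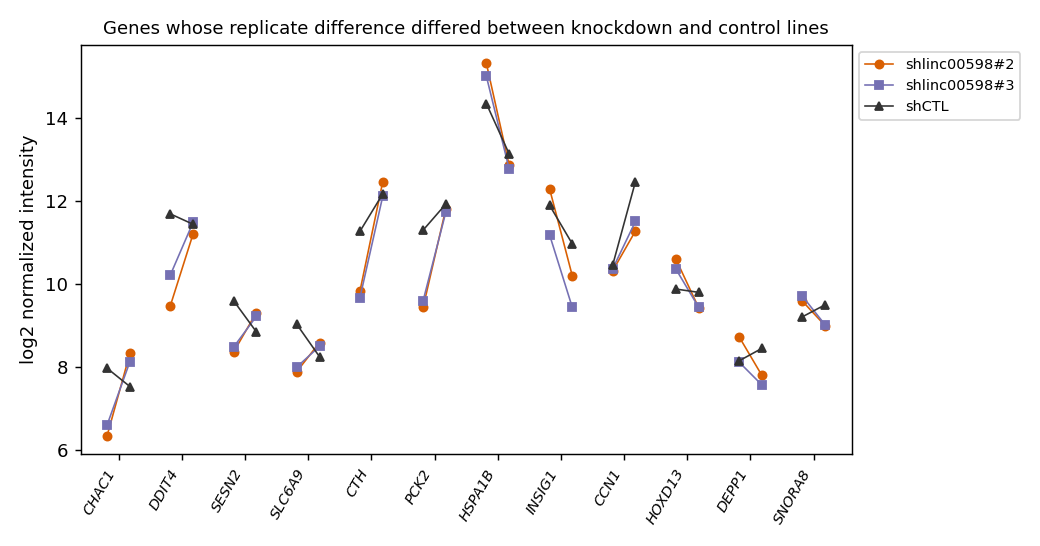
Log2 normalized intensity (y axis) of the 12 genes named for the interaction on each array, with replicate 2 as the left and replicate 1 as the right point of each line. CHAC1, DDIT4, SESN2 and SLC6A9 were lower in replicate 2 in the knockdown lines and higher in shCTL.

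Cholesterol synthesis went the other way. Of 23 genes kept, 14 were higher in replicate 2 (60.9%, against 20.3% of all genes), 2 were lower and 7 were not called (median 0.41). INSIG1, a sterol-sensing anchor that holds SREBP in the endoplasmic reticulum and is itself a target of SREBP, read 12.30, 11.19 and 11.90 in replicate 2 against 10.20, 9.44 and 10.97 in replicate 1. It was higher within every line (2.11, 1.75 and 0.93), the sides did not overlap, and its mean difference was 1.60 (SE 0.18, adjusted p = 0.00028). SQLE, squalene epoxidase, read 13.53, 13.40 and 13.31 against 11.69, 11.91 and 12.38 (1.42, SE 0.15). DHCR7, NSDHL, ACAT2 and MSMO1, which act along the same pathway, differed by 1.23, 1.10, 1.01 and 0.93, and the sides did not overlap in any of these 5 genes. Of the 3 MSMO1 probes, the lowest differed by 0.09. The regulators SREBF1 and SREBF2 differed by -0.22 and -0.11 and were not called, and INSIG2 and SC5D were lower, at -0.34 and -0.42. FASN, ACLY and SCD, which make and desaturate fatty acids, were higher by 0.68, 0.79 and 0.67, whereas ELOVL1, an elongase, was lower, at -0.89. Over the 16 genes of fatty acid synthesis 4 were higher and 3 lower (25% and 18.8%), near the shares of all genes (20.3% and 20.0%). The letters TCACNCCAC, a form of the sterol regulatory element, stood in 1 of 21 promoters of the cholesterol list (SREBF2), against 1.15% of all promoters.

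Heat shock proteins, mostly of the cytosol, and their co-chaperones were higher in 17 of 32 genes kept, lower in 2 and not called in 13 (53.1% and 6.25%, against 20.3% and 20.0% of all genes). The median was 0.39, and within the lines 0.34 in shlinc00598#2, 0.46 in shlinc00598#3 and 0.17 in shCTL. HSPA1B, the inducible HSP70, read 15.32, 15.01 and 14.35 in replicate 2 and 12.87, 12.78 and 13.14 in replicate 1. Every replicate 2 array lay above every replicate 1 array, by 1.96 on average (SE 0.20, adjusted p = 0.000154), and the interaction was 1.13 (adjusted p = 0.0148). HSPA1A is nearly identical in sequence, so signal of the pair may be shared. HSPA8, the constitutive HSC70, read 14.28, 14.18 and 13.49 against 12.62, 12.24 and 12.33 (1.59, SE 0.13). DNAJB1, a partner of HSP70, read 11.20, 11.07 and 10.53 against 9.93, 9.88 and 9.89 (1.04, SE 0.12, adjusted p = 0.000344). HSPE1, HSP90AB1, HSP90AA1 and HSPH1 were higher by 0.75, 0.71, 0.48 and 0.46. HSPE1 and HSPD1 (higher by 0.4) are mitochondrial chaperones that the list also holds. HSPB8, a small heat shock protein that acts with BAG3 in selective autophagy, was lower, at 7.08, 7.43 and 7.27 in replicate 2 and 9.50, 9.65 and 9.81 in replicate 1 (-2.39, SE 0.09, adjusted p = 2.86e-06). DNAJB2 was lower, at -0.71, and HSPB1, another small heat shock protein, differed by -0.17 and was not called. HSF1, HSPA1A, HSPA1L, HSPA6 and CRYAB have named probes but were not detected on enough arrays to be kept.

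The heat shock element, as units of GAA and TTC in alternating orientation, was searched on both strands and stood in 4 of 28 promoters of the heat shock list (14.3%), against 0.487% of all promoters and 0.343% of those of kept genes. This share describes a list of known heat shock genes and not these arrays. Among called genes the element stood in 0.359% of the promoters of those higher and 0.265% of those lower. The match nearest to the start is shown in capitals for the 3 members in which it lies before it, at chr11:123062161-123062209 (minus strand, 55 to 43 bases before the start) for HSPA8, chr7:157336855-157336903 (plus strand, 131 to 119) for DNAJB6 and chr11:90223069-90223117 (minus strand, 50 to 38) for CHORDC1.
HSPA8: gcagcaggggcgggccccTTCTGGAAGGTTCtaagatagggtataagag
DNAJB6: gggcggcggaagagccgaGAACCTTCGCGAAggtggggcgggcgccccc
CHORDC1: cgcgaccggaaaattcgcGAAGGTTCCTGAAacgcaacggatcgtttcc
HSPA8 and DNAJB6 were higher in replicate 2 (1.59 and 0.65), and CHORDC1, an HSP90 co-chaperone with the same letters close to its start, differed by -0.09 and was not called.

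Of 28 chaperones and response genes of the endoplasmic reticulum kept, 6 were higher and 7 lower (21.4% and 25%, median 0.06), near the shares of all genes (20.3% and 20.0%). HSPA5, the abundant chaperone BiP, was lower, at -0.51. XBP1, the transcription factor of the unfolded protein response, was lower, at -1.08 (SE 0.09, adjusted p = 8.95e-05), DNAJB9 at -0.64 and ERO1B at -0.57. The chaperone calreticulin (CALR) and SDF2L1 were higher by 0.69 and 0.77.

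Genes that read glucose through MondoA were among the most decreased. Of the 6 kept, 5 were lower (83.3%, against 20.0% of all genes) and 1, MLX, the partner of MondoA, was higher by 0.53. TXNIP, an arrestin-like inhibitor of glucose uptake and thioredoxin, read 10.13, 10.24 and 11.01 in replicate 2 and 12.65, 13.10 and 13.28 in replicate 1 (-2.55, SE 0.12, adjusted p = 3.95e-06). ARRDC4, a related arrestin, read 8.53, 8.52 and 9.05 against 11.16, 11.31 and 11.93 (-2.77, SE 0.09, adjusted p = 1.49e-06). In both genes the 3 lines differed by similar amounts, from -2.86 to -2.26 for TXNIP and from -2.88 to -2.62 for ARRDC4. ARRDC3 and KLF10 differed by -0.45 and -0.83, and another KLF10 probe by 0.12. The paired E boxes of a carbohydrate response element were searched on both strands and stood in 1 of the 5 promoters at hand, that of TXNIP, against 0.524% of all promoters. Among called genes they stood in 0.84% of the promoters of those lower and 0.975% of those higher. The window lies at chr1:145996633-145996685 (minus strand, 88 to 72 bases before the start), and a match to the metal response letters TGCNCNC overlaps the paired E boxes, shown in capitals.
TXNIP: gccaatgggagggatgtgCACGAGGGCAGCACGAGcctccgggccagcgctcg
Enzymes of glycolysis were higher in 12 of 23 genes and lower in 3 (52.2% and 13%, against 20.3% and 20.0% of all genes, median 0.32). PKM, pyruvate kinase, read 12.54, 12.58 and 12.62 in replicate 2 and 11.71, 11.80 and 11.69 in replicate 1 (0.84, SE 0.08, adjusted p = 0.000154). PFKFB4, which makes the activator of phosphofructokinase, was higher by 0.92, PGAM1 by 0.62, PFKP by 0.60 and PGK1 by 0.46. The neuronal type glucose transporter SLC2A3 was lower, at -0.87. The list of targets and regulators of the hypoxia-inducible factors had 6 higher and 7 lower of 35 (17.1% and 20%, median -0.03), near the shares of all genes. HIF1A and EPAS1 differed by -0.20 and 0.04.

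Genes of growth arrest and cell division moved in part. CDKN1A, the p21 inhibitor of cyclin-dependent kinases and a target of p53, read 9.77, 10.25 and 10.54 in replicate 2 and 11.94, 12.42 and 12.39 in replicate 1 (-2.06, SE 0.10, adjusted p = 4.42e-06). GADD45A, a growth arrest gene that stands in several lists, read 9.45, 9.48 and 9.92 against 12.11, 12.43 and 12.91 (-2.86, SE 0.10), and PMAIP1, the BH3-only protein NOXA, was lower, at -2.25. Of 26 p53 targets 11 were lower and 2 higher (42.3% and 7.69%, against 20.0% and 20.3% of all genes), with a median of -0.06. The D-type cyclins, which open the cell cycle with CDK4 and CDK6, went in different directions. CCND2 read 8.95, 9.31 and 10.65 in replicate 2 and 11.45, 11.87 and 12.37 in replicate 1 (-2.26, SE 0.15, adjusted p = 2.66e-05). CCND1 read 11.70, 11.28 and 11.60 against 10.64, 10.53 and 11.19 (0.74, SE 0.12, adjusted p = 0.00138), and CCND3 differed by -0.05 and was not called. Replicate 2 of shCTL, the highest replicate 2 array for CCND2, still lay below every replicate 1 array. The difference of CCND2 from shCTL was -1.71 in shlinc00598#2 and -1.35 in shlinc00598#3 within replicate 2, and -0.92 and -0.50 within replicate 1. FOXO1 and COG6, which flank linc00598, differed by 0.16 and -0.08 between the replicates and were not called. The lists of DNA replication (6 higher and 13 lower of 53, median -0.04) and mitosis (9 higher and 12 lower of 52, median -0.07) lay near the median of all genes. The shares higher and lower were 11.3% and 24.5% for replication and 17.3% and 23.1% for mitosis, against 20.3% and 20.0%. Replication-dependent histones, whose transcripts accumulate in S phase, were lower in 9 and higher in 1 of 24 kept (37.5% and 4.17%). Of the 57 listed, 33 were not detected on enough arrays to be kept. Whether these probes measure the transcripts that accumulate in S phase was not tested. The largest decrease was that of H2BC5 (-0.81), and H2BC4, detected on 3 replicate 2 arrays and 1 replicate 1 array, was the 1 that was higher (0.31). Histone copies are close in sequence. MYC differed by -0.18 and was not called.

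Immediate early genes, which respond to growth factors within minutes, were lower in 15 of 34 (44.1%, against 20.0% of all genes) and higher in 5 (14.7%, against 20.3%). EGR1, a zinc finger transcription factor, read 10.08, 10.21 and 10.55 in replicate 2 and 8.28, 8.66 and 8.64 in replicate 1 (1.75, SE 0.10, adjusted p = 8.99e-06), and FOS and FOSB were higher by 0.95 and 0.93. DUSP1, a phosphatase of MAP kinases, was lower, at -1.38, and KLF2 and KLF6 were lower, at -1.22 and -1.19. JUN read 12.35, 12.20 and 12.57 in replicate 2 against 12.78, 13.01 and 13.96 in replicate 1, a difference of -0.88 (SE 0.15). The matricellular genes CCN1 and CCN2, which YAP also drives, were lower, at -1.37 and -1.18, and shCTL had the largest decrease in each (-2.01 and -1.85). Of 19 targets and factors of the YAP pathway 7 were lower and 1 was higher (36.8% and 5.26%, against 20.0% and 20.3% of all genes). ACTA2, smooth muscle actin, was lower, at -2.08, and RHOB, a stress-induced small GTPase, at -1.82, whereas ACTB was higher by 0.70.

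MT1X, a metallothionein that binds zinc, read 10.45, 10.24 and 10.28 in replicate 2 and 8.72, 8.63 and 8.68 in replicate 1 (1.65, SE 0.08, adjusted p = 5.81e-06). MT2A was higher by 0.80. Of the 9 genes of the zinc list 4 were higher and 1 was lower (44.4% and 11.1%, against 20.3% and 20.0% of all genes). Metallothioneins are close paralogs. PRDX1, a peroxiredoxin, read 14.42, 14.38 and 14.27 in replicate 2 and 13.06, 13.14 and 13.10 in replicate 1 (1.25, SE 0.09), and HMOX1, heme oxygenase, was lower, at -0.80. The NRF2 list as a whole had 8 higher and 6 lower of 31 (25.8% and 19.4%), near the shares of all genes (20.3% and 20.0%).

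Translation and energy genes were shifted by less. Mitochondrial ribosomal proteins were higher in 35 of 74 and lower in 8 (47.3% and 10.8%, against 20.3% and 20.0% of all genes, median 0.23). MRPS15 read 12.08, 12.12 and 11.98 in replicate 2 and 11.06, 11.16 and 10.97 in replicate 1 (0.99, SE 0.08). Cytosolic ribosomal proteins were higher in 16 of 57 and lower in 2 (28.1% and 3.51%), with a median of 0.00. RPL29 and RPL28 were higher by 1.28 and 0.95, and RPL37 was lower, at -1.01. Nuclear-encoded subunits of the respiratory chain were higher in 22 of 68 and lower in 3 (32.4% and 4.41%, median 0.04). Proteasome subunits were higher in 12 of 34 and lower in 2 (35.3% and 5.88%, median 0.12). Of 14 housekeeping genes 4 were higher, ACTB among them, and 2 were lower (28.6% and 14.3%). GAPDH differed by 0.00. With median scaling, the list medians were 0.27 for mitochondrial and 0.11 for cytosolic ribosomal proteins. They were 0.14 for the respiratory chain, 0.22 for the proteasome and 0.13 for housekeeping genes (0.01 without).

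Small noncoding RNA genes were set apart by their RefSeq class after their values were seen. The paper amplified total RNA with the Illumina TotalPrep kit. Whether the signal of these probes measures the mature small RNA or a longer transcript was not tested. Small nucleolar RNAs (snoRNAs), which guide the modification of ribosomal RNA and are cut from the introns of host genes, were higher in 55 of 117 kept and lower in 1 (median 0.27), against 20.3% higher and 20.0% lower among all genes. Both kinds showed it, with 29 of 61 box H/ACA and 26 of 56 box C/D snoRNAs higher, and medians of 0.28 and 0.26. Their median was 0.28 and 0.33 in shlinc00598#2, 0.36 and 0.36 in shlinc00598#3 and 0.18 and 0.07 in shCTL, for box H/ACA and box C/D. SNORA13 read 8.77, 8.84 and 8.25 in replicate 2 and 7.60, 7.55 and 7.36 in replicate 1 (1.12, SE 0.10, adjusted p = 9.46e-05). Their mean levels over the arrays were 8.14 and 8.15, where the lowest detected signal per array was 6.95 to 7.01. Of the 4 Y RNAs, which bind the Ro protein, RNY4 and RNY1 were higher (2.10 and 1.72), RNY3 differed by 0.06 and RNY5 was lower, at -0.51. Of 12 small nuclear RNAs, 4 were higher, all of them copies of the U1 family (RNVU1-7, RNVU1-18, RNU1-3 and RNU1-1, 1.30 to 0.63) that are nearly identical in sequence, and RNU6-1 was lower, at -0.44.

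**Figure D5:**
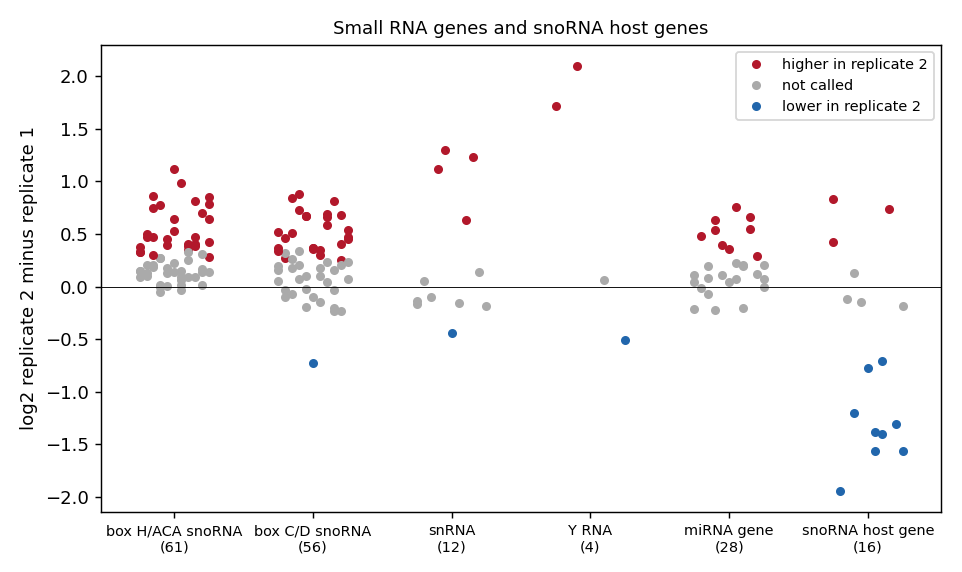
Log2 difference of replicate 2 minus replicate 1 (y axis) for each small RNA gene and snoRNA host gene kept, with the number of genes in brackets and colours for the limma call. The snoRNAs lie mostly above 0, and 9 of the 16 long noncoding host genes, which were not matched to these snoRNAs, were lower.

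Long noncoding snoRNA host genes were also set apart after their values were seen, as those named SNHG with GAS5, ZFAS1, DANCR and EPB41L4A-AS1. These were not matched to the snoRNAs above, so which of them host any of those snoRNAs was not examined. Of 16 kept, 9 were lower and 3 were higher, with a median of -0.74, where 20.0% of all genes were lower and 20.3% higher. SNHG32 read 12.61, 12.65 and 13.11 in replicate 2 and 14.71, 14.78 and 14.70 in replicate 1 (-1.94, SE 0.12, adjusted p = 1.35e-05). SNHG1 read 12.86, 12.66 and 12.92 against 14.37, 14.47 and 14.29 (-1.56, SE 0.10), and ZFAS1 read 11.96, 11.95 and 12.05 against 13.49, 13.62 and 13.54 (-1.56, SE 0.09). In all 3 the lines were close together on each side and the sides did not overlap. EPB41L4A-AS1, SNHG11, SNHG15 and SNHG8 were lower, at -1.40 to -1.20, SNHG6, SNHG4 and DANCR were higher by 0.42, 0.74 and 0.83, and GAS5 differed by 0.13, with a signal near the lowest detected one. SNHG7 differed by -0.71, and another of its probes by 0.38.

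Of the markers of the HEK293 line, 9 of 12 were kept. PAX2 and LHX1 were not detected on enough arrays. VIM, KRT8, KRT18, CDH2, GATA3, EYA1, NEFL, NEFM and SIX2 were read in both replicates, 6 of them lower and 1 (SIX2, 0.72) higher in replicate 2. The shares were 66.7% and 11.1%, against 20.0% and 20.3% of all genes. The call of CDH2 (-0.35) was lost without the shlinc00598#3 pair (limma adjusted p = 0.0611) and with no line block (limma adjusted p = 0.0941). NEFM, a neurofilament, read 8.24, 8.43 and 8.14 in replicate 2 against 9.49, 9.70 and 10.07 in replicate 1 (-1.49, SE 0.13, adjusted p = 9.73e-05). Of 20 markers of other cell types, 13 were not kept and 6 were. Of the 6, EPCAM and COL1A1 were lower, at -0.52 and -0.41, and the other four were not called. In bulk RNA, fewer cells of a type and less RNA per cell cannot be told apart. The part of these markers in the other results was not tested. Genes of neurons, NEFM among them, were lower in 13 of 24 kept and higher in 2 (54.2% and 8.33%). BASP1 differed by -1.76, KIF5C by -1.25, KIF1A by -1.15 and MAPT by -0.82 (another MAPT probe by -0.13).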

How the data were processed

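The authors exported probe intensity with a detection p-value from GenomeStudio 2011.1; this deposited table, before normalization, gave all values. Their deposited processed table holds quantile-normalized log2 values, and 4 of its 6 columns hold another array's values than their labels name, so it served only as an alternative. Intensities were quantile-normalized and put on the log2 scale with limma 3.58.1 in R 4.3.3, without subtracting background. Of 47321 probes, 20364 passed the detection filter and were kept, and a gene was read by its brightest kept probe. Of all probes, 30113 carry 1 symbol, 8 several and 17200 none. Of 1461 called genes with several kept probes, 167 had another probe of opposite sign.

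limma fitted replicate with line as a block (2 residual degrees of freedom), and the interaction with knockdown (1), with Benjamini-Hochberg adjustment over all genes and a threshold of 0.05. An exact test over 3 pairs cannot go below p = 0.25. Folds near background are compressed, and precision is limited by there being 6 arrays. Promoters, from RefSeq, were at hand for 9608 of the 11941 named genes. Further letters searched were TGACGTCA (1.98% of promoters, 1 of 33 in the ATF4 list) and TGCNCNC (55.2%, 5 of 7 in the zinc list). Members, lists and tests were chosen with earlier results of these data known. The genes named were the 12 largest called changes in each direction, up to 5 members of each list by p, 16 regulators and 6 genes in each direction of the interaction; other genes were chosen after their values were seen. Alternatives were median scaling, neqc (offset 16), the processed table, other detection filters, the mean of a gene's probes, no line block, other folds and each pair left out, and, chosen after seeing the data, undetected signal set at each array's lowest detected signal.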

Additional observations from a re-analysis of the deposited data

Results flagged for a closer look

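The replicate difference differed between the knockdown lines and shCTL, by limma's interaction term, in the 12 genes named here. The term is the mean log2 difference of both knockdown lines less that of shCTL, it has 1 residual degree of freedom, and with neqc background correction no gene passed it. The negative ones were CHAC1 (-2.19), DDIT4 (-1.76), CTH (-1.64), PCK2 (-1.63), SESN2 (-1.60) and SLC6A9 (-1.38), all 6 of them members of the ATF4 list. The value of CHAC1 rests on knockdown arrays of replicate 2 that were below detection, and with these at their lowest detected signal it was -1.67, a bound. The positive ones were HSPA1B (1.13), DEPP1 (1.04), INSIG1 (1.00), HOXD13 (0.97), CCN1 (0.96) and SNORA8 (0.93). HOXD13, a homeobox factor, read 10.60, 10.36 and 9.88 in replicate 2 of shlinc00598#2, shlinc00598#3 and shCTL, and 9.43, 9.44 and 9.80 in replicate 1. Both knockdown lines were higher in replicate 2, and shCTL differed by 0.08. DEPP1, a FOXO-regulated autophagy gene, differed by 0.93, 0.55 and -0.30 in the same order of lines, and SNORA8 by 0.60, 0.68 and -0.29. CCN1 was lower in all 3 lines, by most in shCTL (-0.96, -1.14 and -2.01). Their adjusted p ran from 0.000175 for CHAC1 to 0.0418 for INSIG1. Groups of 3 arrays were too small for a test of outlying arrays.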

How the results depend on the processing

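No paired analysis was possible with the replicate number as a block, because the replicate number is itself the comparison; arrays were paired by line instead. The counts of called genes, 3334 higher and 3287 lower, stayed within 1.5 times under median scaling, neqc, the processed table matched to its arrays, both other filters, the mean of a gene's probes and no line block. With 1 pair left out they ran from 2024 to 3444 higher and from 2035 to 3431 lower. Taking the processed columns as labelled, an alternative chosen after seeing the data, limma called 0 higher and 0 lower (90 at an unadjusted p under 0.05), and 0 and 0 were at least 2-fold different in all lines. The counts at least 2-fold higher and lower, 43 and 108, became 108 and 243 with neqc, 392 and 503 at 1.5-fold and 4 and 30 at 3-fold, and with 1 pair left out ran from 49 to 82 and from 113 to 206. The interaction's 52 calls became 0 with neqc, 81 with no detection filter, 24 with undetected signal at each array's lowest detected signal (chosen after seeing the data) and 15 with a detection p under 0.01 on all 6 arrays. As labelled, 4 of the 6 processed columns hold another array's values, and the counts at 1.5-fold and 3-fold differ by their cutoff. The cause of the other changes was not tested, other than that fewer arrays or genes enter some of them. No list median of 0.1 or more and none of the 176 called genes among those named by the rule changed sign in the alternatives run on the arrays as matched. Of 35 list medians, 11 moved beyond their spread over lines with median scaling, by 0.02 to 0.12, and 5 with neqc, by 0.08 to 0.25, where the cholesterol median became 0.62 (0.41 without) and the MondoA one -0.89 (-0.64 without). With undetected signal at the lowest detected, 1 moved, that of the circadian clock, to -0.15 (-0.37 without). Of the 195 named genes, calls were lost by 12 without the shlinc00598#3 pair, 8 without the shlinc00598#2 pair, 3 without the shCTL pair, 7 with no line block, 3 with neqc, 3 with the mean of a gene's probes, 2 with no detection filter, 2 with undetected signal at the lowest detected and 1 with median scaling. Calls were gained by 8 without the shCTL pair and 4 with median scaling. ATF4 (-0.32, limma adjusted p = 0.0267) and SREBF1 (-0.36, limma adjusted p = 0.0106) were called lower without the shCTL pair. CHAC1 and DDIT4 were among those lost with neqc (limma adjusted p = 0.122 and 0.105) and with no line block (0.052 and 0.12).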

Other observations

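Of 15 circadian clock genes kept, 8 were lower in replicate 2 and 2 were higher (53.3% and 13.3%, against 20.0% and 20.3% of all genes), with a median of -0.37 against 0.01 over all genes. With undetected signal set at each array's lowest detected signal, that median was -0.15. The activator BMAL1 was lower, at -0.59, the repressors NFIL3, PER2 and NR1D2 at -0.64, -0.53 and -0.48, and CLOCK, the partner of BMAL1, was higher by 0.32. BHLHE40, another repressor, was lower, at -0.40. That call was lost without the shlinc00598#3 pair (limma adjusted p = 0.088) and with no line block (limma adjusted p = 0.195). Interferon-stimulated genes were lower in 12 of 32 kept and higher in 4 (37.5% and 12.5%). ISG15, a ubiquitin-like modifier, was lower, at -0.65 and IFIH1, a sensor of double-stranded RNA, at -0.57, whereas IFIT1, which binds viral RNA caps, read 8.43, 8.68 and 8.88 in replicate 2 of shlinc00598#2, shlinc00598#3 and shCTL and 7.66, 7.73 and 8.01 in replicate 1 (0.87, SE 0.09, limma adjusted p = 0.000146).

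Of 45 lysosome and autophagy genes, 14 were higher and 13 lower (31.1% and 28.9%, against 20.3% and 20.0% of all genes), with a median of -0.05. The autophagy proteins GABARAPL1, ATG4A and MAP1LC3B were lower, at -1.16, -0.66 and -0.53, and the lysosomal proteins CTSA, MCOLN1 and LAMP1 were higher by 1.10, 0.69 and 0.56. CTSA, cathepsin A, differed by the same amount in every line (1.09, 1.12 and 1.11 in shlinc00598#2, shlinc00598#3 and shCTL).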
